A study of Xenopus tropicalis with 24 samples.

Results

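The 10 genes described here encode transcription factors that are switched on early after a stimulus. They are the Fos family members *fos*, *fosb*, *fosl1* and *fosl2*, the Jun family members *jun*, *junb* and *jund*, and *atf3*, *egr1* and *klf2*. They were taken by symbol from the 26531 genes of a count table, and all 10 were found. *fos* and *klf2* had been picked because they were high at 0 h post amputation (hpa) and low by 6 hpa, and the set as a whole was picked with its 0 hpa levels in view. Changes from 0 hpa are therefore described here without a test.

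The RNA came from amputated tails of *X. tropicalis* tadpoles, as all newly formed tissue plus a short stretch of stump next to the cut, at 0, 6 and 24 hpa. There were 4 groups. TRDKO61 and TRDKO56 were tadpoles with both thyroid hormone receptor genes, TRα and TRβ, knocked out (TRα-/-β-/-), at stage 61, the climax of metamorphosis, and at premetamorphic stage 56. WT61 and WT56 were wild-type tadpoles at the same stages. All groups were amputated under anaesthesia. The TRDKO tadpoles came from parents that carried the TRα knockout on both chromosomes and the TRβ knockout on 1, and were told apart by PCR on a clipped tail tip, and how long before amputation the clip was taken is not given in the sources used here. The study described WT61 tails as nonregenerative and the tails of the other groups as regenerative. Each of the 12 conditions had 2 libraries, which the labels call biological replicas. The methods can be read as 2 libraries made from each RNA sample, so the p-values below measure the spread between these libraries, which may be technical.

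AP-1 is a dimer of basic leucine zipper (bZIP) proteins. A Jun protein can pair with another Jun, a Fos or an ATF protein, while Fos proteins do not pair with themselves. The dimer binds a short DNA motif in the control regions of many wound-response genes. *fos*, *fosb*, *jun*, *egr1* and *atf3* are textbook immediate early genes: their transcription starts within minutes of growth factor, stress or wound signals, needs no new protein, and is soon shut off. *fosl1* is known as a slower target that AP-1 itself helps to switch on. *egr1* and *klf2* encode zinc finger proteins and are not part of AP-1. KLF2 is best known in mammals for its place in blood vessel endothelium and resting lymphocytes.

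The depth was 3956148 to 20731438 counts per library (median 12576320). Replicate 2 of WT56 at 0 hpa was the shallowest. The biological coefficient of variation (BCV) between libraries was 11.8% to 20.4% over the 10 fits. The receptor transcripts were still counted in the knockouts. *thrb*, the TRβ gene, had 94.3 and 112 CPM (counts scaled to library size) in TRDKO61 against 218 and 212 CPM in WT61 at 0 hpa. At stage 56 the order was reversed at 0 hpa, with 20.6 and 28.7 CPM in TRDKO56 against 8.91 and 12.3 CPM in WT56. *thra*, the TRα gene, had 9.42 and 10.6 CPM in TRDKO61 against 13.9 and 13.3 CPM in WT61 at 0 hpa. At stage 56 it had 5.93 and 7.36 CPM in TRDKO56 against 6.41 and 5.52 CPM in WT56 at that time. A count does not show whether a working receptor is made. Markers of muscle, epidermis, notochord, endothelium, neural tissue, leukocytes and erythrocytes were all present. Of these, *myh4* was at 0 in 11 conditions and *krt12.1* in 11. With bulk tissue, fewer cells of a type and less RNA per cell cannot be told apart. No gene sequence was used, and the coordinates below are those of UCB_Xtro_10.0.

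At 0 hpa most of the set stood at its highest level, and WT56 stood above the other groups. 8 of the 10 members had their highest condition mean in WT56 at 0 hpa. *fosl1* peaked in WT56 at 6 hpa and *fosl2* in WT61 at 0 hpa. Between the highest and the lowest condition mean, the CPM differed 318-fold for *fosb*, 148-fold for *fos*, 76.6-fold for *klf2*, 18.2-fold for *fosl1* and 16.7-fold for *egr1*. The others spanned a narrower range, from 3.99-fold for *junb* to 7.28-fold for *atf3*.

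**Figure D1:**
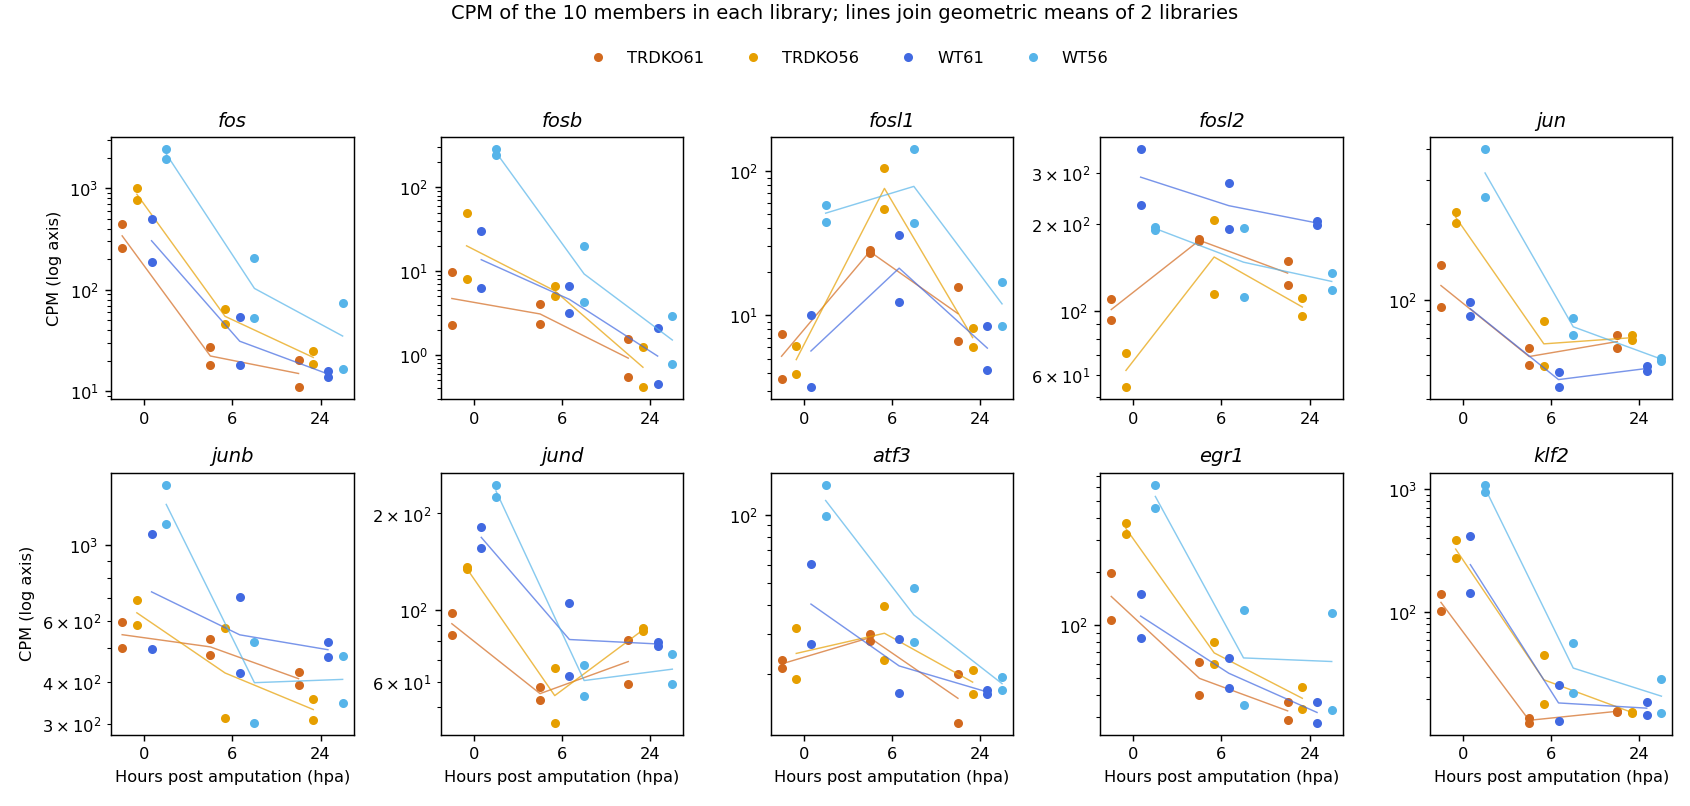
CPM on a log axis against hours post amputation for the 10 members, with a panel per gene, a point per library and lines through the geometric means of the 2 libraries of each group. *fos* and *klf2* drop steeply between 0 and 6 hpa in all 4 groups, the *fosl1* line of each group peaks at 6 hpa, and *fosl2* stays between 54.1 and 363 CPM.

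*fos* (chromosome 8, 82309660 to 82312599, minus strand, 4 exon intervals) encodes the founding Fos protein. In TRDKO61 it had 261 and 443 CPM at 0 hpa, 18.3 and 27.1 CPM at 6 hpa and 10.9 and 20.5 CPM at 24 hpa. TRDKO56 libraries held 764 and 999, then 46.5 and 64.5, then 18.7 and 24.9 CPM at the same times. For WT61 the values were 494 and 188 CPM at 0 hpa, 18.1 and 53.4 CPM at 6 hpa and 14 and 15.7 CPM at 24 hpa. The drop by 6 hpa was seen in every group, and no 6 hpa library reached a 0 hpa library of its own group. WT56 had 1963 and 2421 CPM at 0 hpa, 52.3 and 204 CPM at 6 hpa and 16.6 and 74.0 CPM at 24 hpa. In WT56 at 0 hpa, *fos* ranked 138th of all genes by mean CPM scaled to exon length. The fitted log2 fold change (FC) of 6 over 0 hpa was -3.93 (SE 0.34) in TRDKO61, -3.99 (SE 0.34) in TRDKO56, -3.24 (SE 0.76) in WT61 and -4.09 (SE 0.78) in WT56. These 4 values chose the gene and are a description. Among the 12 condition means in order of size, 2 neighbouring steps had no overlap between libraries: WT56 stood above TRDKO56, and TRDKO56 above TRDKO61, all at 0 hpa. Lower in the order, neighbours overlapped.

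*fosb* (chromosome 8, 70669530 to 70680296, plus strand) encodes a close relative of Fos. It was the scarcest member after the first hours, and its 2 libraries often differed several fold. At 0 hpa it had 2.27 and 9.84 CPM in TRDKO61, 8.16 and 49.5 CPM in TRDKO56, 30.2 and 6.22 CPM in WT61 and 242 and 285 CPM in WT56. By 6 hpa its level lay between 2.37 CPM in a TRDKO61 library and 19.8 CPM in a WT56 library. At 24 hpa no library exceeded 2.88 CPM. The fitted log2 FC of 6 over 0 hpa ran from -0.81 (SE 0.93) in TRDKO61 to -4.44 (SE 0.82) in WT56, so the drop was within the error in TRDKO61.

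*fosl1* (chromosome 4, 37716892 to 37723478, plus strand) encodes FRA-1, which lacks the transactivation domain of Fos. It was low at 0 hpa, with 7.47 and 3.64 CPM in TRDKO61, 3.96 and 6.17 CPM in TRDKO56 and 10.1 and 3.17 CPM in WT61. WT56 was the exception at this time, with 44.7 and 58.3 CPM. At 6 hpa *fosl1* had 26.9 and 28.4 CPM in TRDKO61, 54.7 and 105 CPM in TRDKO56, 12.5 and 36.2 CPM in WT61 and 43.3 and 141 CPM in WT56. By 24 hpa it had 6.70 and 15.8 CPM in TRDKO61, 8.12 and 6.07 CPM in TRDKO56, 4.20 and 8.39 CPM in WT61 and 8.46 and 17.1 CPM in WT56. The peak at 6 hpa stood clear of both other times in TRDKO61, TRDKO56 and WT61, but in WT56 the libraries at 6 and 0 hpa overlapped. The described log2 FC of 6 over 0 hpa was 2.30 (SE 0.38), 3.94 (SE 0.41), 1.95 (SE 0.74) and 0.86 (SE 0.66) in TRDKO61, TRDKO56, WT61 and WT56.

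*fosl2* (chromosome 5, 5732484 to 5759385, plus strand) encodes FRA-2. It was present throughout, between 54.1 and 363 CPM. At 0 hpa it had 109 and 93.1 CPM in TRDKO61, 54.1 and 71.1 CPM in TRDKO56, 363 and 233 CPM in WT61 and 191 and 195 CPM in WT56. At 6 hpa the levels were 177 and 174 CPM in TRDKO61, 114 and 207 CPM in TRDKO56, 193 and 278 CPM in WT61 and 112 and 194 CPM in WT56. At 24 hpa they were 122 and 149 CPM in TRDKO61, 111 and 95.8 CPM in TRDKO56, 204 and 199 CPM in WT61 and 118 and 136 CPM in WT56. Between 0 and 6 hpa *fosl2* was higher without overlap in both TRDKO groups (log2 FC 0.82, SE 0.26, and 1.35, SE 0.27), while in WT61 (-0.32, SE 0.31) and WT56 (-0.33, SE 0.31) the difference was about the size of its error.

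Of the 3 Jun genes *jun* spanned the widest range of condition means, 6.85-fold. *jun* (chromosome 4, 86739842 to 86742008, plus strand, a single exon) had 93.9 and 138 CPM in TRDKO61 at 0 hpa, 54.8 and 64.0 CPM at 6 hpa and 64.3 and 71.9 CPM at 24 hpa. In TRDKO56 it had 203 and 225, then 54.0 and 82.0, then 68.8 and 72.2 CPM. In WT61 it had 98.0 and 86.3, then 44.6 and 51.5, then 54.4 and 51.8 CPM. WT56 libraries had 258 and 399, then 72.0 and 84.2, then 57.1 and 58.5 CPM. In each group both 0 hpa libraries stood above both 6 hpa libraries, and the described log2 FC was -0.94, -1.66, -0.92 and -2.07 in TRDKO61, TRDKO56, WT61 and WT56 (SE 0.21 to 0.25).

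*junb* (chromosome 3, 140363407 to 140365791, minus strand), whose protein is known in mammals to restrain c-Jun in some settings, was the most abundant member at 6 and 24 hpa in every group. By mean CPM scaled to exon length, it ranked between 199th and 603rd of all genes in every condition. At 0 hpa it had 502 and 598 CPM in TRDKO61, 583 and 691 CPM in TRDKO56, 1076 and 496 CPM in WT61 and 1152 and 1501 CPM in WT56. From 6 hpa on, all 16 libraries lay between 303 and 708 CPM. The described log2 FC of 6 over 0 hpa was within or near its error in TRDKO61 (-0.10, SE 0.27) and WT61 (-0.46, SE 0.42). It was -0.53 (SE 0.28) in TRDKO56 and -1.69 (SE 0.43) in WT56. In TRDKO56 both 6 hpa libraries (313 and 574 CPM) lay below both 0 hpa libraries.

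*jund* (chromosome 1, 103485526 to 103488111, plus strand), the Jun gene known for steady expression in resting cells, had 83.9 and 98.3 CPM in TRDKO61, 134 and 136 CPM in TRDKO56, 181 and 157 CPM in WT61 and 225 and 246 CPM in WT56 at 0 hpa. The 4 groups followed each other at 0 hpa without overlap, WT56 highest and TRDKO61 lowest. At 6 hpa it lay between 44.6 and 105 CPM and at 24 hpa between 58.8 and 87.8 CPM. A separate gene annotated as *jund.2* is not part of the set, and how reads shared by similar genes were assigned was not tested.

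*atf3* (chromosome 5, 14454847 to 14466122, minus strand) encodes a stress-induced bZIP protein that pairs with Jun and often represses. At 0 hpa it had 23.1 and 21.1 CPM in TRDKO61, 18.9 and 31.9 CPM in TRDKO56, 60.9 and 26.9 CPM in WT61 and 98.5 and 136 CPM in WT56. At 6 hpa the values were 29.8 and 27.8 CPM in TRDKO61, 22.9 and 39.6 CPM in TRDKO56, 16.5 and 28.3 CPM in WT61 and 27.5 and 47.8 CPM in WT56. All 24 hpa libraries lay between 12.2 and 20.7 CPM. A high 0 hpa level set WT56 apart, and the described log2 FC of 6 over 0 hpa was 0.41 (SE 0.28) in TRDKO61, 0.29 (SE 0.29) in TRDKO56, -0.95 (SE 0.43) in WT61 and -1.62 (SE 0.43) in WT56.

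*egr1* (chromosome 3, 48248147 to 48251735, plus strand), a serum response target, followed *fos* closely. It had 106 and 197 CPM at 0 hpa, 40.0 and 61.8 CPM at 6 hpa and 28.8 and 36.7 CPM at 24 hpa in TRDKO61. TRDKO56 libraries had 377 and 326, then 60.3 and 79.7, then 33.3 and 44.2 CPM. In WT61 the gene had 149 and 84.0, then 43.7 and 64.5, then 36.5 and 27.8 CPM. The 0 hpa libraries were the highest of each group. WT56 had 457 and 620.2, then 34.9 and 121, then 32.8 and 117 CPM, so that replicate 2 stood well above replicate 1 at both later times.

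*klf2* (chromosome 1, 112428739 to 112432154, minus strand) had 103 and 142 CPM at 0 hpa, 14 and 12.7 CPM at 6 hpa and 15.9 and 15.6 CPM at 24 hpa in TRDKO61. In TRDKO56 the values were 277 and 386, then 18 and 44.8, then 15.3 and 15.6 CPM. WT61 libraries held 419 and 143, then 13.1 and 25.8, then 18.9 and 14.8 CPM. All groups came down to a common low level, and the 24 hpa libraries lay between 14.8 and 28.7 CPM. WT56 had 954 and 1087, then 22 and 56.8, then 15.2 and 28.7 CPM. The log2 FC of 6 over 0 hpa, which chose the gene, was -3.17 (SE 0.40) in TRDKO61, -3.40 (SE 0.40) in TRDKO56, -3.84 (SE 0.63) in WT61 and -4.69 (SE 0.65) in WT56.

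Over the set, 5, 7, 5 and 8 of the 10 members were lower at 6 than at 0 hpa with no overlap between libraries in TRDKO61, TRDKO56, WT61 and WT56. Of all genes fitted, 31.4%, 32.5%, 31.1% and 30.8% were lower without overlap in those groups. The set was partly chosen on this difference, so nothing is read from these counts. At 24 hpa against 0 hpa all 10 members had a negative log2 FC in WT61 and in WT56, from -0.06 (*fosl1* in WT61) to -7.14 (*fosb* in WT56). In both TRDKO groups *fosl1* and *fosl2* were the exceptions, with log2 FC of 0.42 to 0.99.

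To compare levels between genes, counts were scaled to library size and exon length (FPKM), and each gene's share of its family's summed FPKM was taken. At 0 hpa *fos* made up most of the Fos family. Its share was 85.9% and 92.6% in TRDKO61, 97.0% and 95.7% in TRDKO56, 79.2% and 71.6% in WT61 and 91.1% and 91.5% in WT56. At 6 hpa *fosl1* held 34.0% and 32.6% in TRDKO61, 47.6% and 52.7% in TRDKO56, 18.2% and 26.3% in WT61 and 40.4% and 41.7% in WT56. By then *fos* had come down to between 17.1% and 44.5%, and *fosl2* held 12.4% to 61.1%. By 24 hpa *fosl2* was the largest part in 7 of the 8 libraries. It made up 64.0% and 50.8% in TRDKO61, 51.9% and 45.8% in TRDKO56, 75.1% and 67.8% in WT61 and 55.0% and 28.8% in WT56. In that last WT56 library *fos* was the largest, at 53.7%.

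**Figure D2:**
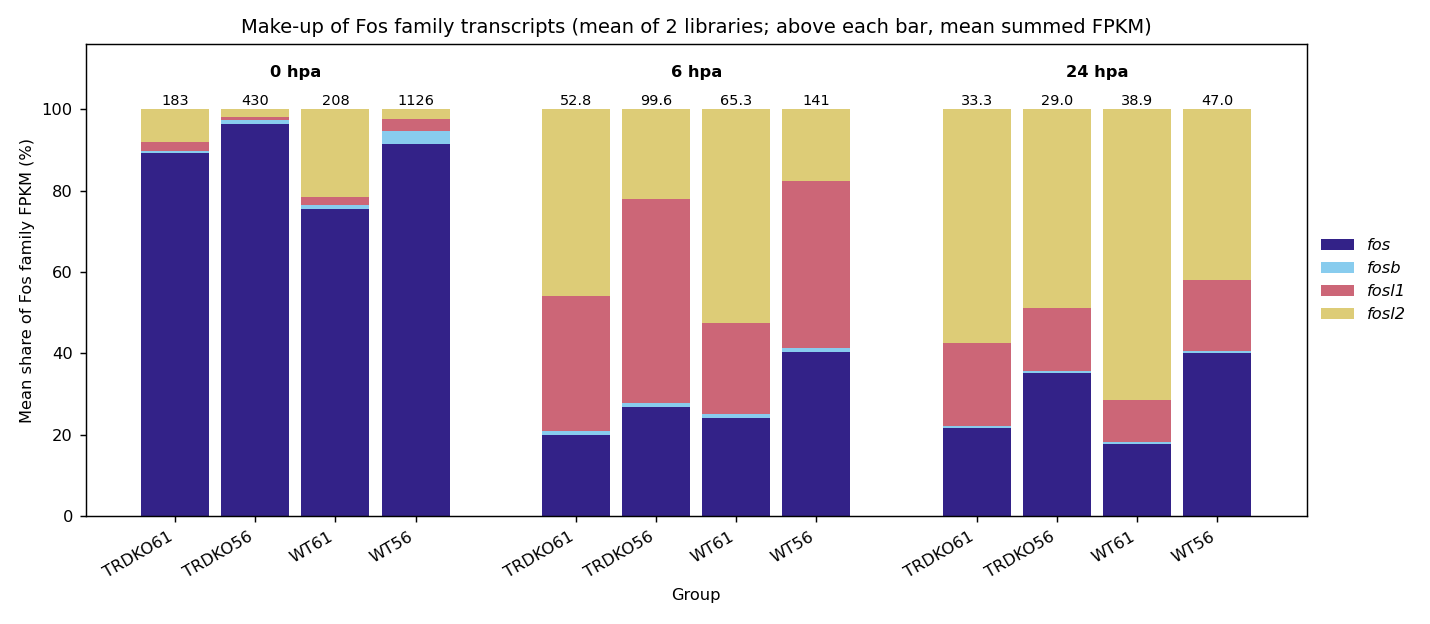
Stacked bars of the mean share (%) of *fos*, *fosb*, *fosl1* and *fosl2* in the summed FPKM of the Fos family, for each group at 0, 6 and 24 hpa, with the mean summed FPKM above each bar (n = 2 libraries). *fos* fills most of every 0 hpa bar, *fosl1* widens at 6 hpa, and *fosl2* is widest at 24 hpa.

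The summed Fos family FPKM was 142 and 224 in TRDKO61, 370 and 490 in TRDKO56, 292 and 123 in WT61 and 1010.5 and 1241 in WT56 at 0 hpa. By 24 hpa it lay between 26.3 and 64.6 FPKM in the 8 libraries, so the large spread between groups at 0 hpa had narrowed. In the Jun family *junb* was the largest part throughout, with 62.7% to 82.2% of the FPKM in the 24 libraries. The share of *jun* ran from 6.58% in a WT61 library at 6 hpa to 24.02% in a TRDKO56 library at 0 hpa, and its means at 0 and 6 hpa were 16.6% and 10.5% in TRDKO61 and 23.6% and 13.4% in TRDKO56. The summed Jun FPKM lay between 194 and 272 at 24 hpa, against 286 to 908 at 0 hpa.

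Whether the members changed between 6 and 24 hpa, which the study called the period of blastema formation, could be tested for 8 of them, all but *fos* and *klf2*. Each test was edgeR's quasi-likelihood test, and false discovery rate (FDR) stands for its p adjusted by Benjamini-Hochberg over all genes tested. A gene was called where FDR was under 0.05 and the absolute log2 FC over 1. 2 members fell in TRDKO56 and 2 in WT56, and none was called in TRDKO61 or WT61. Of all genes, 6.84% were called lower and 5.7% higher in TRDKO56, 7.23% lower and 5.99% higher in WT56, 1.19% lower and 1.66% higher in TRDKO61, and 0.442% lower and 0.872% higher in WT61.

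*fosl1* fell 11.4-fold in TRDKO56 to 8.12 and 6.07 CPM at 24 hpa, against 54.7 and 105 CPM at 6 hpa (log2 FC -3.51, SE 0.45, FDR 0.00354). In WT56 it fell to 8.46 and 17.1 CPM at 24 hpa, against 43.3 and 141 CPM at 6 hpa (log2 FC -2.88, SE 0.72, FDR 0.0257). The WT56 call was lost without WT56 at 6 hpa replicate 2 (log2 FC -1.77, FDR 0.186), WT56 at 24 hpa replicate 1 (-2.44, FDR 0.134) or WT56 at 24 hpa replicate 2 (-3.45, FDR 0.0967). In TRDKO61 the log2 FC was -1.29 (SE 0.42, FDR 0.116) and in WT61 -1.98 (SE 0.76, FDR 0.218). The TRDKO61 value passed by DESeq2 (-1.28, adjusted p 0.015) and without TRDKO61 at 24 hpa replicate 2 (-2.02, FDR 0.0487).

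*fosb* fell in TRDKO56 to 1.24 and 0.409 CPM at 24 hpa, against 5.04 and 6.75 CPM at 6 hpa (log2 FC -2.81, SE 0.60, FDR 0.0137). That call was lost without TRDKO56 at 6 hpa replicate 2 (-2.57, FDR 0.0778) or TRDKO56 at 24 hpa replicate 2 (-2.26, FDR 0.0874). The WT56 difference had a similar size and a larger error (log2 FC -2.71, SE 0.91, FDR 0.0657), and it passed without WT56 at 6 hpa replicate 1 (-3.37, FDR 0.0391). *atf3* fell in WT56 to 19.4 and 16.9 CPM at 24 hpa, against 27.5 and 47.8 CPM at 6 hpa (log2 FC -1.09, SE 0.32, FDR 0.0417). It lay near the limit: the call was lost without WT56 at 6 hpa replicate 2 (-0.61, FDR 0.219), WT56 at 24 hpa replicate 1 (-1.17, FDR 0.122) or replicate 2 (-0.97, FDR 0.212), or WT61 at 24 hpa replicate 1 (-1.07, FDR 0.0722) or replicate 2 (-1.06, FDR 0.0723). *egr1* in TRDKO56 (log2 FC -0.89, FDR 0.0366) and *jun* in WT56 (-0.46, FDR 0.0319) fell under the fold limit at an FDR under 0.05. Without TRDKO56 at 6 hpa replicate 1 the log2 FC in TRDKO56 was -1.0 for *fosl2*, -1.09 for *atf3* and -1.04 for *egr1*.

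Muscle markers moved over the same interval. Their sum was 5563 to 6296 CPM at 24 hpa against 19934 to 21068 CPM at 6 hpa in TRDKO56, and 7137 to 8025 CPM at 24 hpa against 25546 to 29007 CPM at 6 hpa in WT56. In TRDKO61 it was 3890.4 to 8591 CPM at 24 hpa against 5958 to 8134 CPM at 6 hpa, and in WT61 6224 to 9464 CPM against 10808 to 13120.3 CPM. The muscle sums were thus lower at 24 hpa without overlap in TRDKO56, WT56 and WT61, and overlapped in TRDKO61. Other marker sums moved in the same interval too. In WT56 the epidermis sum was 4552 to 4665 CPM at 24 hpa against 7690 to 8224 CPM at 6 hpa. Its notochord sum was 192 to 240 CPM against 657 to 696 CPM. The epidermis sums overlapped in TRDKO61 and TRDKO56. The leukocyte sum rose in WT56 to 1127 to 1478 CPM, against 824 to 1056 CPM at 6 hpa. In TRDKO61 it fell to 1026 to 1325 CPM, against 1707 to 2106 CPM. The part of any tissue in the member changes was not tested.

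The difference between TRDKO61 and WT61 in the 24 over 6 hpa change was tested directly at stage 61. No member differed by edgeR, with no unadjusted p under 0.05 among the 8 tested and none by DESeq2. For *fosl1* the difference in log2 FC was 0.69 (SE 0.83) and for *fosb* 0.44 (SE 1.06), so sizeable differences lay within the error. Of all genes, 0% were called in that test, and 953 of 16320 had an unadjusted p under 0.05.

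Between stages, most calls were at 0 hpa in the wild type. 4 members fell and none rose in WT61 relative to WT56, where 7.05% of all genes were called lower and 4.93% higher. *fosl1* had 10.1 and 3.17 CPM in WT61 against 44.7 and 58.3 CPM in WT56 (log2 FC -3.04, SE 0.54, FDR 0.00615). *jun* had 98.0 and 86.3 CPM in WT61 against 258 and 399 CPM in WT56 (log2 FC -1.87, SE 0.24, FDR 0.000262). *egr1* had 149 and 84.0 CPM in WT61 against 457 and 620.2 CPM in WT56 (log2 FC -2.24, SE 0.36, FDR 0.00265). These 3 calls were kept when any one of the 8 libraries was left out, but the *fosl1* call was lost when the 4 libraries of the comparison were fitted alone (-3.04, FDR 0.0519).

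*atf3* fell as well, with 60.9 and 26.9 CPM in WT61 against 98.5 and 136 CPM in WT56 (log2 FC -1.45, SE 0.42, FDR 0.0449). That call was lost without either WT56 library (log2 FC -1.68, FDR 0.0712 and -1.19, FDR 0.148), without WT61 replicate 2 (-0.94) and without either TRDKO61 library (FDR 0.144 and 0.146). Of the members not called, *fosb* had a large and uncertain difference (log2 FC -3.94, SE 1.24, FDR 0.0858), which was called by DESeq2 (-3.89, adjusted p 0.0103) and in the fit of all 24 libraries (-3.91, FDR 0.00735), and *junb* had -0.79 (SE 0.32, FDR 0.0940). *jund* was below the fold limit at a small FDR (log2 FC -0.51, SE 0.14, FDR 0.0170). *fosl2* alone was higher in WT61, at 363 and 233 CPM against 191 and 195 CPM in WT56 (log2 FC 0.59, SE 0.20, FDR 0.0526). The untested values were -2.72 (SE 0.46) for *fos* and -1.90 (SE 0.48) for *klf2*. In all, 9 members were lower and 1 higher in WT61 with no overlap between the libraries, while 32.3% of all genes were lower and 35.6% higher without overlap. Since the set was chosen with its 0 hpa levels in view, these libraries are not independent of the choice, and the p-values do not allow for it. The same limit holds for the other stage, genotype and interaction tests of the members at 0 hpa below.

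**Figure D3:**
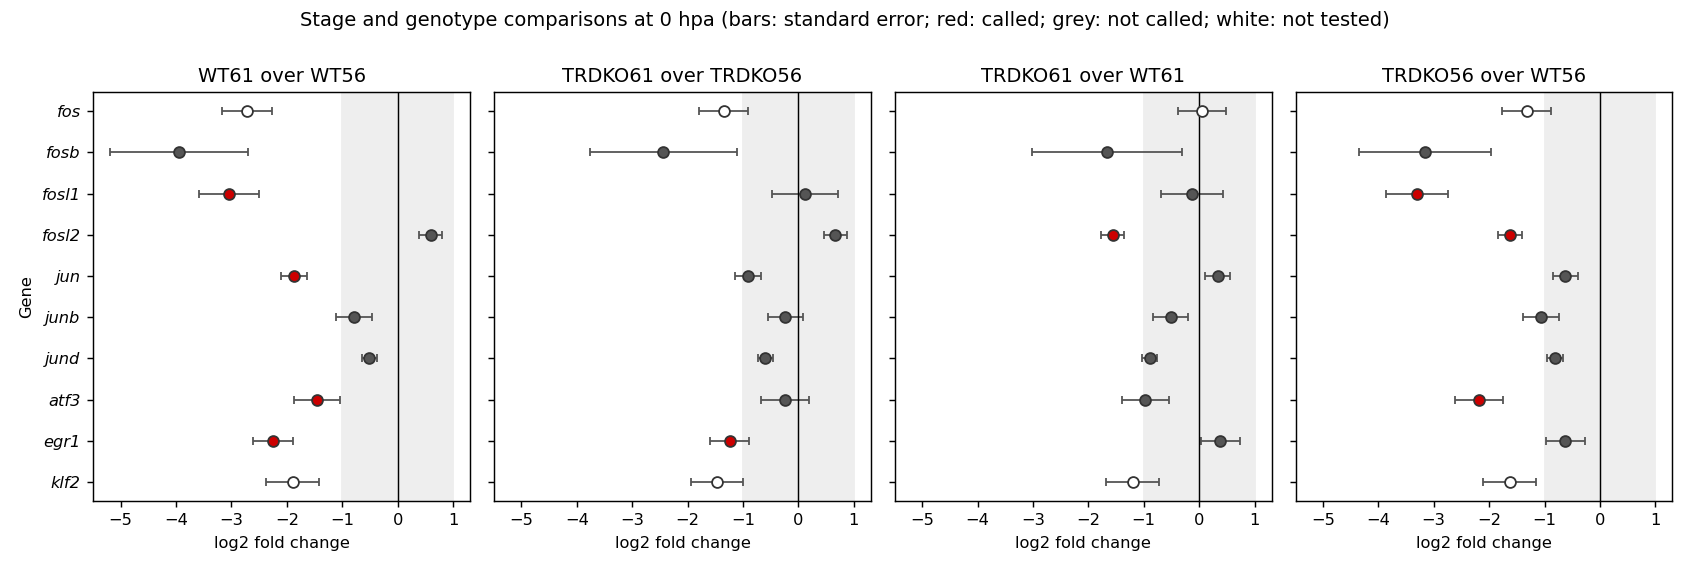
Log2 fold change of each member (rows) at 0 hpa in the stage and genotype comparisons (panels), with bars for the standard error, red points for called members, grey for members not called and white for *fos* and *klf2*, which were not tested. The shaded band marks fold changes within the limit of 1. All 10 points of TRDKO56 over WT56 lie left of 0, while *fos*, *jun* and *egr1* lie right of it in TRDKO61 over WT61.

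In the knockout 1 member was called between stages at 0 hpa, while 6.61% of all genes were called lower and 3.66% higher. *egr1* fell, with 106 and 197 CPM in TRDKO61 against 377 and 326 CPM in TRDKO56 (log2 FC -1.24, SE 0.35, FDR 0.0385). The call was lost without TRDKO56 replicate 1 (-1.13, FDR 0.160), TRDKO56 replicate 2 (-1.35, FDR 0.104) or TRDKO61 replicate 1 (-0.86, FDR 0.126). *jun* had 93.9 and 138 CPM in TRDKO61 against 203 and 225 CPM in TRDKO56, under the fold limit (log2 FC -0.91, SE 0.23, FDR 0.0167), and it was called without TRDKO61 replicate 2 (-1.23, FDR 0.00323). *jund* and *fosl2* were also under the fold limit at an FDR under 0.05, in the same directions as in the wild type. *jund* had 83.9 and 98.3 CPM in TRDKO61 against 134 and 136 CPM in TRDKO56 (log2 FC -0.60, FDR 0.0097). *fosl2* was higher, with 109 and 93.1 CPM in TRDKO61 against 54.1 and 71.1 CPM in TRDKO56 (log2 FC 0.66, FDR 0.0419). *fosl1*, called in the wild type, had a log2 FC of 0.13 (SE 0.59).

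Whether the stage difference depended on the receptors was asked with the genotype by stage interaction, the log2 FC of TRDKO61 over TRDKO56 minus that of WT61 over WT56. At 0 hpa none of the 8 members tested was called, against 5.55% of all genes, 2.42% with a positive interaction. 2 had an unadjusted p under 0.05, *fosl1* and *jun*, as had 3378 of all 15925 genes tested. The interaction of *fosl1* was 3.17 (SE 0.79, FDR 0.0706), and DESeq2 called it at an adjusted p of 0.0384. It was also called by edgeR without WT61 replicate 1 (4.16, FDR 0.00379) or WT61 replicate 2 (2.44, FDR 0.0323). *jun* had 0.95 (SE 0.32, FDR 0.118) and was called without TRDKO61 replicate 1 (1.19, FDR 0.0371), and *atf3* had 1.21 (SE 0.60, FDR 0.315) and was called without WT61 replicate 1 (1.91, FDR 0.0248). No member was called in the interaction at 6 hpa or 24 hpa, where 0.281% and 4.34% of all genes were. Among the 26 tests of the 3 times, 3 had an unadjusted p under 0.05. Of all genes, 3378 of 15925 had one at 0 hpa, 2125 of 15993 at 6 hpa and 3598 of 16271 at 24 hpa.

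Comparing genotypes at stage 56, all 10 members were lower in TRDKO56 than in WT56 at 0 hpa with no overlap between libraries, as were 25.8% of all genes. 3 of the 8 tested were called, against 2.07% of all genes called lower and 0.973% higher. The set was chosen with its 0 hpa levels in view, so no excess over these shares is read from either count. *fosl2* fell, with 54.1 and 71.1 CPM in TRDKO56 against 191 and 195 CPM in WT56 (log2 FC -1.63, SE 0.21, FDR 0.00147), and this call was kept without any one library. *fosl1* fell, with 3.96 and 6.17 CPM in TRDKO56 against 44.7 and 58.3 CPM in WT56 (log2 FC -3.30, SE 0.56, FDR 0.0193). *atf3* fell, with 18.9 and 31.9 CPM in TRDKO56 against 98.5 and 136 CPM in WT56 (log2 FC -2.18, SE 0.44, FDR 0.0374).

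The *fosl1* call was lost without WT56 replicate 1 (-3.50, FDR 0.0577), WT56 replicate 2 (-3.10, FDR 0.0792), TRDKO56 replicate 1 (-3.04, FDR 0.121) or TRDKO56 replicate 2 (-3.68, FDR 0.130). The *atf3* call was lost without any one of 6 libraries, the 4 of the comparison and both TRDKO61 libraries, with log2 FC between -1.87 and -2.62 and FDR of 0.0847 to 0.140. Both differences stayed negative in each of these fits. Among the rest, *jund* was under the fold limit (log2 FC -0.81, SE 0.14, FDR 0.00628). *junb* had 583 and 691 CPM in TRDKO56 against 1152 and 1501 CPM in WT56 (log2 FC -1.07, SE 0.32, FDR 0.0813), and it was called without WT61 replicate 1 (FDR 0.0165) or WT61 replicate 2 (FDR 0.0196). *fosb* had -3.16 (SE 1.19, FDR 0.227), and *jun* and *egr1* both had -0.62. The untested values were -1.32 (SE 0.44) for *fos* and -1.63 (SE 0.48) for *klf2*.

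At stage 61, 1 member was called at 0 hpa, against 6.26% of all genes called lower and 5.43% higher. *fosl2* fell in TRDKO61 to 109 and 93.1 CPM, against 363 and 233 CPM in WT61 (log2 FC -1.56, SE 0.21, FDR 0.000353). The call was kept without any one library. It was the only member called in both genotype comparisons at 0 hpa, and its interaction was 0.07 (SE 0.29). *jund* was under the fold limit, with 83.9 and 98.3 CPM in TRDKO61 against 181 and 157 CPM in WT61 (log2 FC -0.89, SE 0.14, FDR 0.00077). It was called without WT61 replicate 2 (-1.03, FDR 0.0025) or TRDKO61 replicate 2 (-1.02, FDR 0.00051). *fos* did not separate the genotypes at this stage, with an untested log2 FC of 0.05 (SE 0.43).

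The stage 61 comparison leaned on which WT61 library was used. Without WT61 replicate 2, which had the lower level of every member, *junb* (-1.01, FDR 0.0264), *jund* and *atf3* (-1.50, FDR 0.00514) were called lower in TRDKO61 in addition to *fosl2*. 4 members were lower in TRDKO61 with no overlap between libraries, as were 33.1% of all genes.

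At 6 and 24 hpa no member was called in any stage or genotype comparison. The shares of all genes called at 6 hpa were 5.48% for TRDKO61 over TRDKO56, 13.5% for WT61 over WT56, 6.52% for TRDKO61 over WT61 and 0.206% for TRDKO56 over WT56, and at 24 hpa 7.81%, 10.4%, 5.2% and 1.59%. *jun* had an FDR under 0.05 below the fold limit at 6 hpa, with 44.6 and 51.5 CPM in WT61 against 72.0 and 84.2 CPM in WT56 (log2 FC -0.71, SE 0.22, FDR 0.0478). *fosl1* had a larger and less certain difference, with 12.5 and 36.2 CPM in WT61 against 43.3 and 141 CPM in WT56 (log2 FC -1.94, SE 0.64, FDR 0.0635), and it was called without WT56 replicate 1 (-2.55, FDR 0.0386) and in the fit of all 24 libraries (-1.94, FDR 0.0318). *fosb* was also called lower in WT61 without WT56 replicate 1 (-2.02, FDR 0.0324). In TRDKO61 *fosl1* had 26.9 and 28.4 CPM at 6 hpa against 54.7 and 105 CPM in TRDKO56, a difference that was called only when the 4 libraries of the comparison were fitted alone (-1.56, FDR 0.0162). *fosl2* kept its direction at 24 hpa, under the fold limit. It had 204 and 199 CPM in WT61 against 118 and 136 CPM in WT56 (log2 FC 0.67, SE 0.13, FDR 0.00659), and 122 and 149 CPM in TRDKO61 against the same WT61 values (log2 FC -0.56, SE 0.13, FDR 0.0252). *jun* went the other way between genotypes at 24 hpa, also under the fold limit. It had 64.3 and 71.9 CPM in TRDKO61 against 54.4 and 51.8 CPM in WT61 (log2 FC 0.37, FDR 0.0366). At 24 hpa *fos* and *klf2* could be tested too, and neither was called. *fos* had 14 and 15.7 CPM in WT61 against 16.6 and 74.0 CPM in WT56 (log2 FC -1.62, SE 0.67, FDR 0.121). Without WT56 at 24 hpa replicate 1, *fos* (-2.33, FDR 0.00734) and *egr1* (-1.86, FDR 0.00431) were called lower in WT61, and *egr1* was called lower in TRDKO56 than in WT56 (-1.61, FDR 0.0482).

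Marker levels moved with the groups at 0 hpa. The muscle markers (12 genes) summed to 9363 to 9607 CPM in TRDKO61, 15283 to 19415 CPM in TRDKO56, 13481 to 16233 CPM in WT61 and 20848 to 30601 CPM in WT56. The notochord markers (7 genes for 6 of 7 listed symbols) summed to 258 to 299 CPM in TRDKO61, 730.4 to 888 CPM in TRDKO56, 396 to 564 CPM in WT61 and 1288 to 1355 CPM in WT56. The neural markers (10 of 11 listed symbols found) summed to 19.7 to 40.9 CPM in TRDKO61, 91.7 to 97.7 CPM in TRDKO56, 114 to 115.5 CPM in WT61 and 136 to 143 CPM in WT56. All 3 lists were highest in WT56 and lowest in TRDKO61. The 6 erythrocyte markers ran the other way, with 1471 to 1676 CPM in TRDKO61, 316 to 451 CPM in TRDKO56, 239 to 580 CPM in WT61 and 69.9 to 114 CPM in WT56. Endothelial markers (12 of 13 listed symbols found) summed to 181 to 235 CPM in TRDKO61, 264 to 287 CPM in TRDKO56, 329 to 343 CPM in WT61 and 279 to 312 CPM in WT56. The 12 leukocyte markers lay at 718 to 736 CPM in TRDKO61, 584 to 644 CPM in TRDKO56, 872 to 992 CPM in WT61 and 598 to 675 CPM in WT56. The epidermis markers (13 genes for 10 of 11 listed symbols) summed to 3718 to 4652 CPM in TRDKO61, 3396 to 3900.2 CPM in TRDKO56, 5669 to 5927 CPM in WT61 and 5465 to 6334 CPM in WT56. The part of these tissues in the stage and genotype differences was not tested.

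In 5 of the 12 conditions all 10 members differed in the same direction between the 2 libraries. At 6 hpa all 10 members were higher in replicate 2 in TRDKO56, WT61 and WT56, by a median of 1.61-fold, 1.69-fold and 2.10-fold. In WT61 at 0 hpa all 10 were lower in replicate 2, at a median of 0.454 times replicate 1, and in WT56 at 0 hpa all 10 were higher, by a median of 1.27-fold. In TRDKO56 and WT61 at 24 hpa 5 of the 10 were higher in replicate 2, with medians of 0.999 and 1.002 times replicate 1. Across 10805 genes with a mean of at least 10 CPM, the median log2 ratio of the libraries was -0.05 to 0.03. The shift of the members in those 5 conditions was thus not seen in the median gene.

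**Figure D4:**
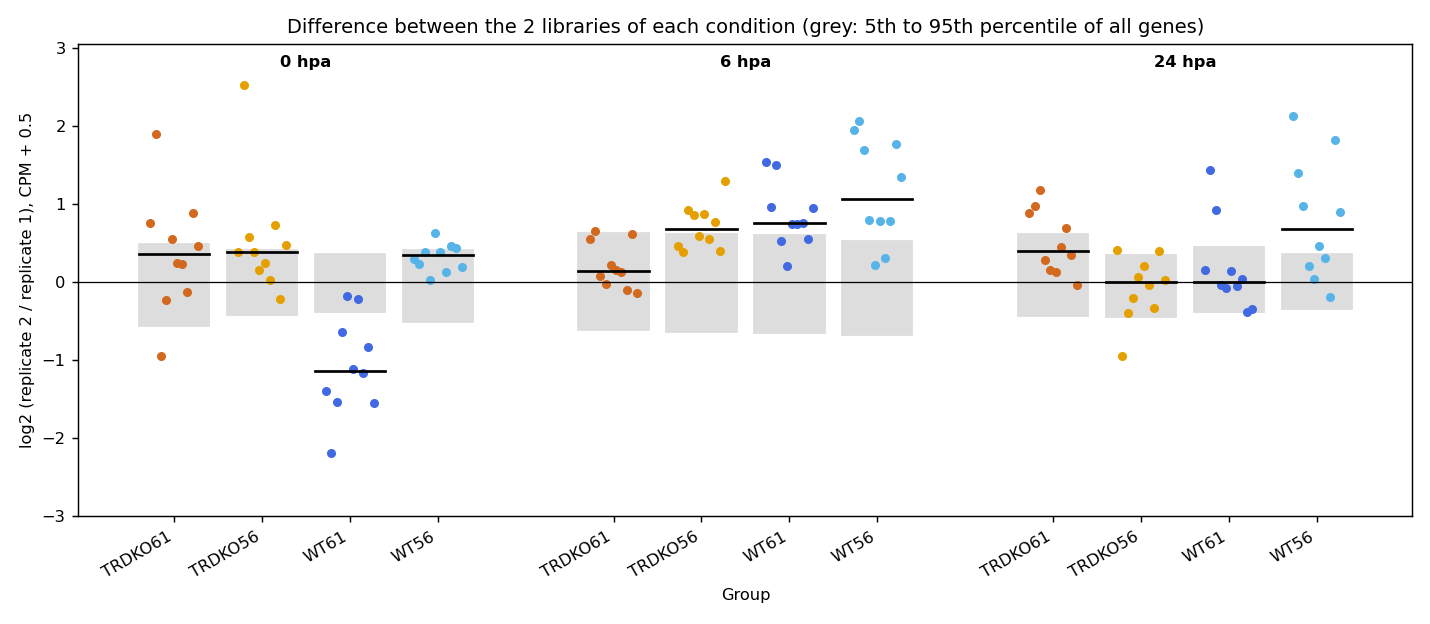
Log2 ratio of replicate 2 to replicate 1 (CPM plus 0.5) for each member (points) in each condition, with a black line at their median and a grey bar for the 5th to 95th percentile of 10805 genes. In WT61 at 0 hpa all 10 points lie below 0, and at 6 hpa all 10 lie above 0 in TRDKO56, WT61 and WT56.

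Related genes were read from 6 lists of 136 symbols. 121 symbols were in the table, as 126 genes. The lists were also drawn up with earlier results of these data known. In every comparison between stages, genotypes or times used below, the median log2 FC of all genes lay between -0.02 and 0.02. At 0 hpa, 7.05% of all genes were called lower and 4.93% higher in WT61 relative to WT56. In TRDKO56 relative to WT56 the shares were 2.07% lower and 0.973% higher. They were 6.61% and 3.66% in TRDKO61 relative to TRDKO56, and 6.26% and 5.43% in TRDKO61 relative to WT61. The interaction was called for 5.55% of all genes, and was positive for 2.42%. The list of other immediate early and feedback genes was the longest of the 6. It had the largest number of calls of any list in WT61 relative to WT56 and in TRDKO56 relative to WT56, both at 0 hpa. By share of genes tested, the AP-1 targets had more calls in TRDKO56 relative to WT56, 5 of 18 against 7 of 34. In WT61 relative to WT56, 14 of the 34 tested genes of the immediate early and feedback list fell and none rose, with a median log2 FC of -0.77. *per1*, a clock gene that also responds early to stimuli, had 25.7 and 14.8 CPM in WT61 against 105 and 142 CPM in WT56 (log2 FC -2.65, SE 0.29, FDR 0.000224). *ptgs2*, the inducible prostaglandin synthase, had 170 and 98.8 CPM in WT61 against 531 and 594 CPM in WT56 (log2 FC -2.10, SE 0.24, FDR 0.000144). *ier2* had 278 and 160 CPM in WT61 against 500.1 and 733 CPM in WT56 (log2 FC -1.53, SE 0.28, FDR 0.00296). The count was 8 without WT56 replicate 1 or replicate 2 and 6 without WT61 replicate 2, and at most 15 without any other library.

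In TRDKO56 relative to WT56, 7 of the 34 fell and none rose, with a median log2 FC of -0.64. *trib1*, a pseudokinase gene, had 20.03 and 25.5 CPM in TRDKO56 against 78.2 and 79.7 CPM in WT56 (log2 FC -1.79, SE 0.27, FDR 0.00564). *sgk1*, a serum-induced kinase gene, had 70.8 and 86.8 CPM in TRDKO56 against 233 and 229 CPM in WT56 (log2 FC -1.56, SE 0.17, FDR 0.0004). That count ran from 1, without WT56 replicate 2, to 8 when each library was left out. It was 3 without WT56 replicate 1 and 2 without TRDKO56 replicate 1. In TRDKO61 relative to TRDKO56 1 gene of this list rose and 1 fell, and in TRDKO61 relative to WT61 1 rose, *per1*, with 51.1 and 35.4 CPM in TRDKO61 against 25.7 and 14.8 CPM in WT61 (log2 FC 1.12, SE 0.28, FDR 0.0168). Over the other lists the called interactions at 0 hpa went both ways. They were positive for 2 klf genes and 2 AP-1 targets. Negative ones were called for 2 klf genes, 2 bZIP partners and 1 gene of the upstream kinase and SRF list. In the immediate early and feedback list the interaction was called for 4 genes, all positive, with a list median of 0.71: *sgk1* (2.27, SE 0.23, FDR 0.000643), *per1* (1.89, SE 0.39, FDR 0.0288), *gadd45g* (0.96, SE 0.21, FDR 0.0247) and *gadd45a* (0.88, SE 0.20, FDR 0.0294). Left-out libraries gave 1 to 8 such calls.

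Of the early zinc finger and nuclear receptor genes listed with *egr1*, 3 were tested at 0 hpa, and 2 fell and none rose in WT61 relative to WT56, with a median log2 FC of -3.14. *egr2* had 2.90 and 0.705 CPM in WT61 against 23.1 and 22.1 CPM in WT56 (log2 FC -3.82, SE 0.81, FDR 0.0135). *nr4a2* fell in WT61 (log2 FC -3.14, SE 0.62, FDR 0.0147) and in TRDKO61 (log2 FC -2.78, SE 0.71, FDR 0.0415), each relative to stage 56 of its genotype. Of the 13 other klf genes tested at 0 hpa, 3 rose and 1 fell in WT61 relative to WT56, with a median log2 FC of 0.12. *klf9*, a direct target of the thyroid hormone receptor, had 49.2 and 34.8 CPM in WT61 against 6.11 and 6.13 CPM in WT56 (log2 FC 2.74, SE 0.24, FDR 1.41e-05). It also rose in TRDKO61, to 23.1 and 24.8 CPM against 5.07 and 3.21 CPM in TRDKO56 (log2 FC 2.54, SE 0.24, FDR 2.83e-05). *klf4*, a barrier and stem cell factor, had 45.4 and 64.5 CPM in TRDKO56 against 156 and 157 CPM in WT56 (log2 FC -1.52, SE 0.18, FDR 0.000624).

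Of 21 other bZIP partners tested at 0 hpa, 4 fell and none rose in TRDKO56 relative to WT56, with a median log2 FC of -0.09. *crem*, a cAMP-responsive factor, had 35.7 and 45.0 CPM in TRDKO56 against 177 and 157 CPM in WT56 (log2 FC -2.06, SE 0.26, FDR 0.00236), and *cebpb*, *cebpd* and *maff* fell by 1.21, 1.17 and 1.07 on the log2 scale. *crem* also fell in TRDKO61 relative to WT61 (log2 FC -1.70, SE 0.26, FDR 0.00147). In WT61 relative to WT56 3 rose and 2 fell (median log2 FC 0.06), with *cebpa* the largest rise (323 and 308 CPM in WT61 against 80.8 and 68.4 CPM in WT56, log2 FC 2.04). Few of the upstream kinases and SRF cofactors were called. Of 24 tested, 1 rose in WT61 relative to WT56, 1 fell in TRDKO61 relative to WT61, and none was called in the other stage and genotype comparisons at 0 hpa.

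Genes known as AP-1 targets in mammals went both ways. In WT61 relative to WT56 at 0 hpa, 4 of 18 tested rose and 3 fell (median log2 FC -0.35). In TRDKO56 relative to WT56, 5 of the list fell and none rose (median log2 FC -0.13). The TRDKO56 count was 2 to 6 when each library was left out, with 2 without WT56 replicate 2 or TRDKO56 replicate 2. The collagenase gene *mmp1* had 482 and 541 CPM in WT61 against 209 and 238 CPM in WT56 (log2 FC 1.16, SE 0.21, FDR 0.00228). *mmp1* fell in both knockout comparisons, with a log2 FC of -1.58 in TRDKO61 relative to WT61 and -1.64 in TRDKO56 relative to WT56.

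Between 6 and 24 hpa the AP-1 targets also divided. In TRDKO56 2 of 19 rose and 4 fell, in WT56 4 rose and 2 fell, in TRDKO61 3 fell, and in WT61 none was called. Of all genes, 6.84% were called lower and 5.7% higher in TRDKO56, and 7.23% lower and 5.99% higher in WT56. In TRDKO61 the shares were 1.19% lower and 1.66% higher, and in WT61 0.442% lower and 0.872% higher. The gelatinase gene *mmp9.2* rose in WT56 to 184 and 227 CPM at 24 hpa, against 37.1 and 43.7 CPM at 6 hpa (log2 FC 2.32, SE 0.45, FDR 0.0104). In TRDKO61 *cxcl8*, a neutrophil chemokine gene, fell to 38.0 and 31.8 CPM at 24 hpa, against 140 and 119 CPM at 6 hpa (log2 FC -1.88, SE 0.27, FDR 0.0226). Of the immediate early and feedback list, 5 of 35 fell in TRDKO56 (median log2 FC -0.69) and 3 of 36 fell in WT56 (median log2 FC -0.53). In TRDKO61 1 of 35 rose, and in WT61 none was called. The WT56 count was near the share of all genes called lower there. *dusp5*, an ERK phosphatase gene, fell in TRDKO56 to 31.6 and 31.8 CPM at 24 hpa, against 110 and 209 CPM at 6 hpa (log2 FC -2.36, SE 0.40, FDR 0.00731).

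The patterns over the 12 condition means of log2 CPM were compared by Pearson's r as a description, each mean sharing its libraries between genes. *fos* was most like *klf2* (r = 0.98) and *egr1* (r = 0.98), both members, and then LOC116406694 (r = 0.97). *klf2* was closest to *fos*, then to *sec14l1* (r = 0.98) and *neurl1b* (r = 0.96). *egr1* had its highest r with *ier2* (0.98), then *fos* and LOC116409567 (0.97).

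*fosl1* went with *rap2b* (r = 0.99) and *azin2* (r = 0.96), and its r with *fos* was 0.04. *fosb* was nearest to LOC100489802, *zfp36* and *ier3* (r = 0.97 for each). *atf3* was nearest to *coq10b* (r = 0.98), *slc25a25* (r = 0.96) and *pnrc2* (r = 0.96). *fosl2* had no gene as close, with 0.90 for *ets2* and 0.87 for *dot1l*, and its r with *fos* was -0.16. The 3 Jun genes had different neighbours. *jun* was nearest to LOC116406694, *sec14l1* and *hsf3* (r = 0.96 for each), *junb* to *cd82*, *zfp36* and LOC116406510 (r = 0.95 for each), and *jund* to *arrb1* (r = 0.96), *papss2* and *ksr1* (r = 0.95 for both). Of the 30 pairs of a member with its top 3 genes, 20 were also among the top 3 when r was taken over the 24 single libraries.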

How the data were processed

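The authors removed adapters, mapped read pairs to the *X. tropicalis* genome and counted them per gene, and the deposited values are raw counts without normalization. The submitters' processing notes name cutadapt 3.2, STAR 2.7.7a and featureCounts of Subread 2.0.1. The paper's methods name other versions of STAR and Subread. The names of the count columns show that duplicates were marked. Whether marked duplicates were counted, and the strand option, are not given in the sources used here. 2 genes broken over 3 lines were rejoined.

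Here CPM was computed with TMM factors over all 24 libraries and FPKM with the table's exon lengths. Tests used edgeR 4.0.16 in R 4.3.3 (robust quasi-likelihood F test, two-sided, filterByExpr, TMM, Benjamini-Hochberg over all genes) in fits of 8 libraries with 4 group means. Calls needed FDR under 0.05 and absolute log2 FC over 1, and interactions FDR only. DESeq2 1.42.0, other scalings, filters, fits and left-out libraries were alternatives. The scripts were tested on simulated data. The members and lists were chosen with earlier results of these data known. *fos* and *klf2* were tested only within 24 hpa. Genes named are the members, *thra* and *thrb*, up to 3 rises and 3 falls per list and comparison among called genes without overlap, and the 3 genes most like each member. Results for some genes these rules pick are not reported here. Other genes named were chosen after their values were seen.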

Additional observations from a re-analysis of the deposited data

Results flagged for a closer look

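4 results moved one way without overlap between libraries in a group and the other way in another group. At 24 against 6 or 0 hpa, 25% to 41.3% of all genes were higher and 24% to 34.1% lower without overlap in a single group. How many of all genes moved in opposite directions was not counted, so nothing is read from the number. The differences between the groups were not tested. For *jun* at 24 against 6 hpa the log2 FC was 0.15 in WT61 and -0.46 in WT56, 0.61 apart. In WT61 the libraries barely separated, with 54.4 and 51.8 CPM at 24 hpa against 44.6 and 51.5 CPM at 6 hpa. *klf2* at 24 against 6 hpa had a log2 FC of 0.26 in TRDKO61 and -1.06 in TRDKO56, 1.31 apart, at levels of 12.7 to 44.8 CPM. The 6 hpa levels of *klf2* had also served to choose it. *fosl2* at 24 against 0 hpa had a log2 FC of 0.43 in TRDKO61 and -0.57 in WT61, which is 1.0 apart, and 0.67 in TRDKO56 and -0.64 in WT56, 1.31 apart. For *fosl2* the later level was thus higher in both knockout groups and lower in both wild-type groups, after 0 hpa levels that were lower in the knockouts.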

How the results depend on the processing

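Scaling by RLE or upper-quartile factors left every count of called members as reported, and no direction turned. Of 32 tests of 24 against 6 hpa 4 were called. The count was 2 without the filter on low counts, 2 with all 24 libraries in 1 fit, 7 with a replicate block, 1 with glmTreat, and 2 to 7 with 1 library left out. Of 52 stage tests 5 were called, 11 without the fold limit, 3 with glmTreat and 3 to 7 with 1 library left out. Of 52 genotype tests 4 were called, 7 without the filter, 8 without the fold limit, 0 with glmTreat and 2 to 8 with 1 library left out. Of 26 interactions 0 were called, 5 without the filter, 1 with DESeq2 and 0 to 2 with 1 library left out. In the main fits 1.31% to 13.2% of all genes were called at 24 against 6 hpa. The shares were 5.48% to 13.5% in the stage, 0.206% to 11.7% in the genotype and 0.281% to 5.55% in the interaction comparisons. Without the fold limit 6.7% to 29% of all genes passed between stages and 0.206% to 29.9% between genotypes. At 24 against 6 hpa the main fits called 464, 2042, 211 and 2122 genes in TRDKO61, TRDKO56, WT61 and WT56. The replicate block called 361, 1894, 171 and 2069, and glmTreat 0, 332, 0 and 487. In the fit of all 24 libraries it was 904, 2387, 338 and 2346, and without the filter 575, 1961, 284 and 2080. These fits tested 16049 to 21511 genes each. With glmTreat 141 to 623 genes were called between stages and 12 to 503 between genotypes, of 15925 to 16271. Without the filter the 0 hpa interaction was called for 1949 of 21313 genes, and genotype differences for 62 to 2177 of 21313 to 21562. DESeq2 called the interaction for 388 to 1135 of 15925 to 16271 genes. FDRs of members at 0 hpa were far smaller without the filter, at nearly the same log2 FC. *fosl1* in WT61 over WT56 had FDR 2.29e-45 (-3.01), against 0.00615 (-3.04) in the main fit. Its interaction had FDR 5.71e-22 (3.15). Nothing is read from the calls without the filter. The cause of the changes in count was not tested, except that glmTreat tests against the limit itself. The sources used here do not say whether the replicate numbers pair libraries between conditions. Over 66 pairs of conditions same-numbered deviations had r from -0.25 to 0.21 over all genes fitted, 9 of them over 0.1. A pairing that touches few genes could not be seen this way. The block lost *egr1* in TRDKO61 over TRDKO56 (FDR 0.0595) and *atf3* in WT61 over WT56 (0.0938) and TRDKO56 over WT56 (0.0868) at 0 hpa. It gained *fosl1* (FDR 0.0319) and *fosb* (0.0492) at 24 over 6 hpa in WT61, *fosb* (0.00364) in WT56, and *fosl1* in WT61 over WT56 at 6 hpa (0.0112). The fit of all 24 libraries lost *fosb* in TRDKO56 (0.109) and *atf3* in WT56 (0.0597) at 24 over 6 hpa and *egr1* in TRDKO61 over TRDKO56 at 0 hpa (0.152). With 2 libraries per condition, differences of *fosb* up to several fold stay within the error.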
